A study of Mus musculus with 4 samples.

Results

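A set of 39 genes that are typical of macrophages was followed through RNA sequencing of mouse embryonic fibroblast (MEF) cultures. The genes were a named list, chosen with earlier results of these data known. Each symbol matched 1 of the 54532 Ensembl gene IDs of the deposited count table. The cultures were primary MEFs, a mixed outgrowth of connective tissue cells from minced embryos, here from C57BL/6 embryos of 12.5 to 13.5 days post coitum. Proliferating cells at passage 4 gave 1 library for each of 4 genotypes: null for both genes (Trp53-/-; Zfp871-/-, called double null below), Trp53-/-, Zfp871-/- and wild type (WT). Trp53 encodes p53, and Zfp871 encodes a zinc finger protein that the title of the series links to the p53-Mdm2 axis. Trp53-/- and double-null cells came from a cross of double heterozygotes, and Zfp871-/- cells came from a cross of Zfp871 heterozygotes. Both crosses also gave WT cells, and which of them the sequenced WT cells came from is not given in the sources used here. Whether embryos were pooled and how the alleles were made are not given either. The cross is therefore shared by both Trp53-null libraries and cannot be told apart from Trp53 loss. No treatment was applied, and all libraries shared strain, stage and passage.

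Macrophages are phagocytes that descend from yolk sac, fetal liver and bone marrow progenitors and that settle in all tissues, including the connective tissue of the embryo. The transcription factor PU.1 and the receptor for colony stimulating factor 1 set up their identity. Mature cells carry receptors for antibodies, complement and microbial surfaces. These receptors signal through small adaptors with tyrosine motifs, and what the cell takes up is digested by lysosomal enzymes and reactive oxygen. Connective tissue cells make the growth factor that macrophages depend on.

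The libraries held 22324599 counts (double null), 21004078 counts (Trp53-/-), 19974054 counts (Zfp871-/-) and 19303167 counts (WT). Each targeted gene had fewer counts in its own null cultures, with 1382 and 1233 Trp53 counts in double-null and Trp53-/- cells against 2413 and 2383 in Zfp871-/- and WT cells, and with 307 and 327 Zfp871 counts in double-null and Zfp871-/- cells against 784 and 660 in Trp53-/- and WT cells. The fibroblast identity of the cultures was visible in all 4 libraries, since each of 16 fibroblast markers passed the expression filter and their summed level was 36666, 41190, 51397 and 49883 CPM (counts scaled to library size by the TMM method) in double-null, Trp53-/-, Zfp871-/- and WT cells. No genotype was repeated, so every ratio of a pair of libraries compares those libraries, and its 95% interval covers counting error only.

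The macrophage genes were a trace in cultures with Trp53 and a small but well-counted part of the RNA in cultures without it. Together they took 33388 counts in double-null cells and 35649 counts in Trp53-/- cells, against 2355 counts in Zfp871-/- cells and 2029 counts in WT cells. As a share of the library this was 0.15% (exact binomial interval 0.148% to 0.151%) in double-null cells, 0.17% (0.168% to 0.171%) in Trp53-/- cells, 0.0118% (0.0113% to 0.0123%) in Zfp871-/- cells and 0.0105% (0.0101% to 0.011%) in WT cells. In a bulk library, a change in the number of cells of a type and a change in RNA per cell cannot be told apart. All 39 genes had at least 1 CPM in double-null and Trp53-/- cells, whereas 23 did in Zfp871-/- cells and 24 in WT cells.

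The order of the genes was much alike in the 4 libraries. On the length-corrected scale of the deposited FPKM values, the lysozyme gene Lyz2 stood highest in each, at 317 FPKM in double-null, 316 in Trp53-/-, 28 in Zfp871-/- and 26.9 in WT cells. It took 29.1% (28.6% to 29.5%) of the counts of the 39 genes in double-null, 25.6% (25.2% to 26.1%) in Trp53-/-, 29.5% (27.7% to 31.4%) in Zfp871-/- and 33.1% (31.1% to 35.2%) in WT cells. Behind it came Ctss, C1qa, C1qb and Cd68, which held ranks 2 to 6 in every library. At the other end Cd300lf held rank 39 in double-null, Zfp871-/- and WT cells and rank 38 in Trp53-/- cells. Spearman's rho of the FPKM values over the 39 genes lay between 0.91 and 0.97 for the pairs of libraries, given as a description since the genes share libraries and lengths. The median FPKM of the 39 genes was 5.95 in double-null, 7.35 in Trp53-/-, 0.483 in Zfp871-/- and 0.417 in WT cells.

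**Figure D1:**
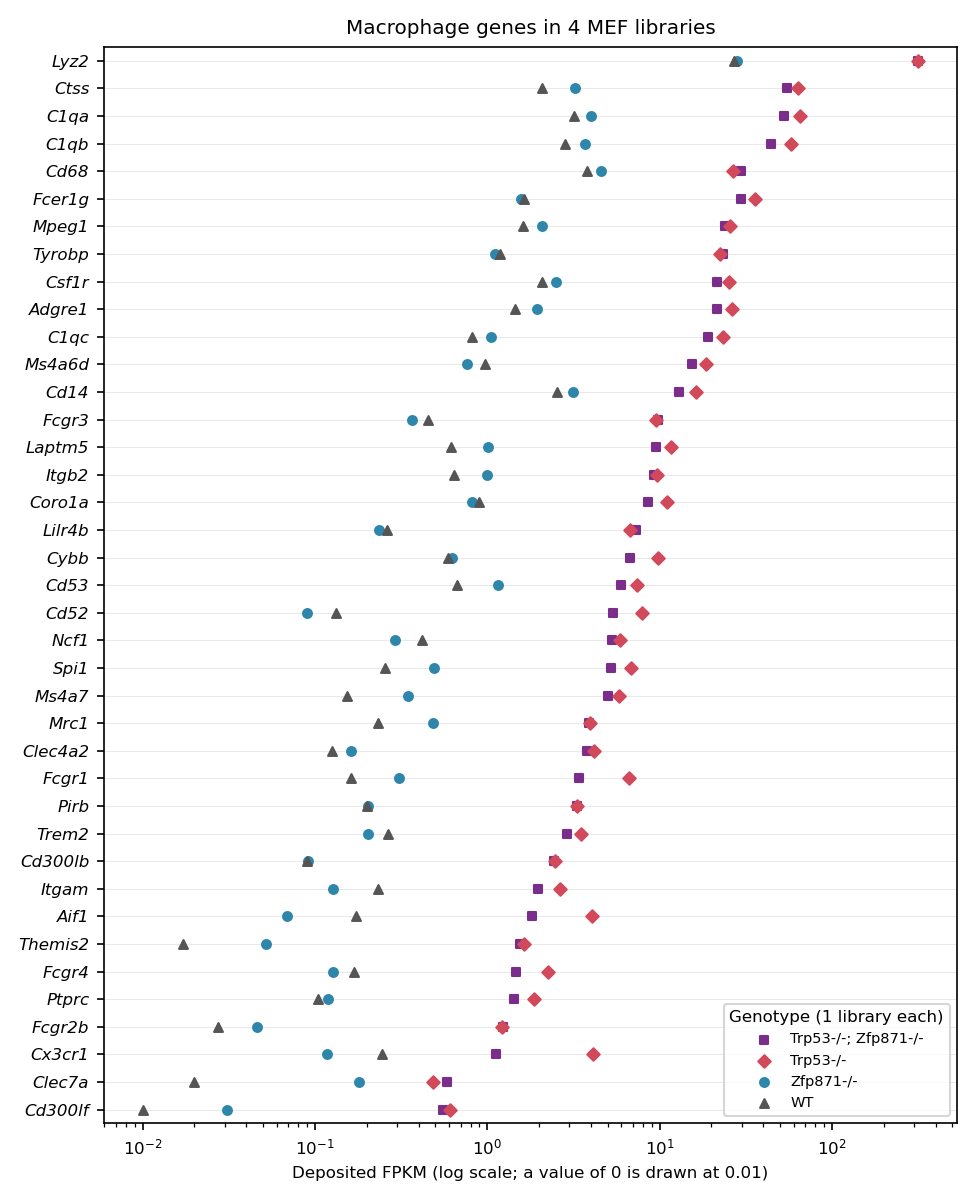
Level of each of the 39 macrophage genes in the 4 libraries, in deposited FPKM on a log axis, with genes ordered by the level in double-null cells and 1 symbol per genotype. The squares (double null) and red diamonds (Trp53-/-) lie to the right of the circles (Zfp871-/-) and triangles (WT) for all 39 genes, and Lyz2 is highest in each library (317, 316, 28 and 26.9 FPKM in double-null, Trp53-/-, Zfp871-/- and WT cells).

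Loss of Trp53 went with higher RNA of the whole set. The edgeR quasi-likelihood test of Trp53 over all 4 libraries, with Zfp871 as a covariate and Benjamini-Hochberg adjustment over 13306 genes, called 38 of the 39 genes, all of them higher without Trp53, at adjusted p between 0.00697 and 0.0405. Over all genes tested, 5.01% rose and 4.31% fell. The list was chosen with earlier results of these data known. Of its genes, 13 passed the expression filter through the Trp53-null libraries alone. The number called is therefore a description and gives no independent support. The gene not called was Clec7a. This test has no replicates of a genotype, and its 1 residual degree of freedom is the departure from additive effects of Trp53 and Zfp871. Its p-values therefore describe these 4 cultures. With Trp53 as the only term the number was again 38, and it was 0 when either the Trp53-/- or the double-null library was left out (smallest adjusted p 0.125 and 0.106, with 38 genes at an unadjusted p under 0.05 and 0 calls among all genes in both cases). It was 39 without Zfp871-/- and 38 without WT.

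In all 39 genes the CPM of both Trp53-null libraries lay above that of both others, against 32.7% of all genes tested. All 39 were also at least 2-fold higher in both pairs that differ in Trp53, against 4.25% of all genes. For double-null over Zfp871-/- cells the median log2 ratio was 3.56 (11.8-fold), lowest for Clec7a at 1.52 and highest for Cd52. Of all genes, 5.51% were at least 2-fold higher in that pair and 6.33% at least 2-fold lower. For Trp53-/- over WT cells it was 4.13 (17.5-fold), lowest for Cd14 at 2.64 and highest for Cd52 at 5.23. Here 8.9% of all genes were at least 2-fold higher, while 8.88% were at least 2-fold lower. The median over all genes was 0.00 in both pairs. The summed counts gave log2 ratios of 3.52 (3.46 to 3.58) for double-null over Zfp871-/- cells and 3.92 (3.86 to 3.99) for Trp53-/- over WT cells. In 32 of the 39 genes the ratio was the lower one in the pair that lacks Zfp871, a difference between pairs that was not tested. Of the 39 genes, 13 passed the expression filter through the Trp53-null libraries alone and so had to be higher there: Cd52, Fcgr1, Fcgr2b, Fcgr3, Fcgr4, Tyrobp, Pirb, Cd300lb, Cd300lf, Clec4a2, Clec7a, Aif1 and Themis2. The 21 genes with at least 1 CPM in each of the 4 libraries had medians of 3.50 for double-null over Zfp871-/- cells and 4.01 for Trp53-/- over WT cells, and the 10 genes with at least 50 counts in each library had 3.48 and 3.99.

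The ratios were not the same for all genes. For double-null over Zfp871-/- cells, the counting interval of 23 genes held the median of the set and that of 16 did not. For Trp53-/- over WT cells these numbers were 28 and 11. Cd52 had the highest ratio in both pairs, and Cd14 and Cd68 were among the 4 lowest in both.

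**Figure D2:**
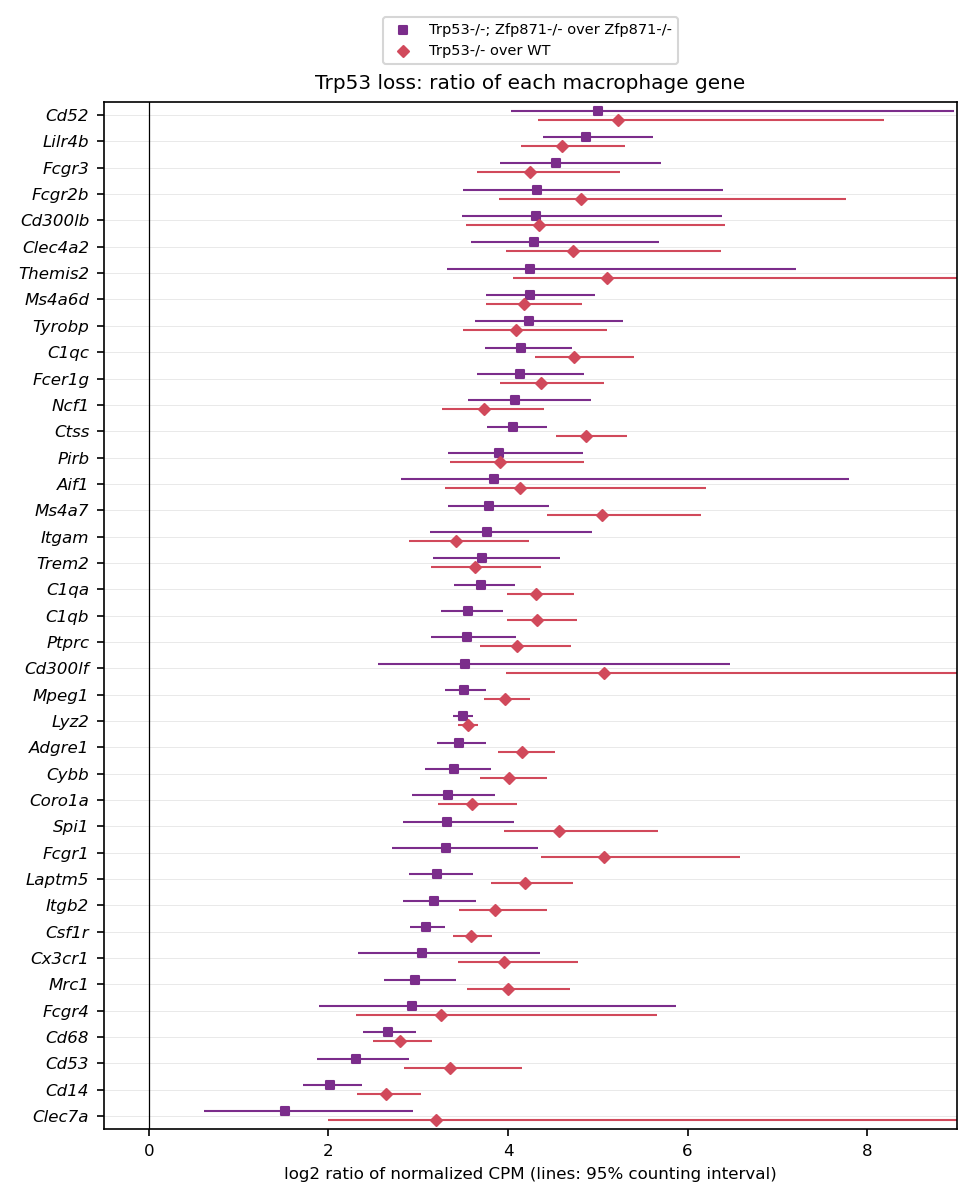
Log2 ratio of normalized CPM for each macrophage gene, with squares for double-null over Zfp871-/- cells and diamonds for Trp53-/- over WT cells. Lines are 95% counting intervals, some of which run past the right edge of the axis, and Cd300lf, with 0 counts in WT, has no upper limit. Every point lies above 1, and the lowest is Clec7a in double-null over Zfp871-/- cells (1.52).

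The regulators of the lineage rose with the rest. Spi1 (ENSMUSG00000002111, chromosome 2, 91082390 to 91115756, GRCm38/mm10) encodes PU.1, the transcription factor without which macrophages do not form. It had 329 counts in double-null and 405 in Trp53-/- cells, against 25 in Zfp871-/- and 13 in WT cells. The test gave a log2 change of 4.02 (SE 0.408, edgeR adjusted p = 0.0219). Csf1r, the receptor for the growth factors CSF1 and IL-34, had 2437 counts in double-null and 2698 in Trp53-/- cells, against 230 in Zfp871-/- and 192 in WT cells. Its log2 change was 3.35 (SE 0.172, edgeR adjusted p = 0.00991). For both genes the Trp53-null libraries stood far above the others, and the remaining libraries still held RNA that the depth could count. Csf1r overlaps Hmgxb3 on the opposite strand, and because no strand setting is stated its reads could be mixed with those of Hmgxb3, which had 1161, 1051, 1054 and 937 counts in double-null, Trp53-/-, Zfp871-/- and WT cells.

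PU.1 binds DNA with a core of GAGGAA. RefSeq promoter windows (GRCm38.p6, 250 bases before to 50 after the gene start, 300 bases in all) were at hand for 30 of the 39 genes. The letters GAGGAA, on either strand, stood in 19 of the 30 windows (63.3%), against 31.3% of the windows of 27025 genes. The longer GAGGAAGT, which contains the first, stood in 6 windows (20%), against 3.69%, namely those of C1qc, Cd300lf, Cd53, Ctss, Fcgr4 and Pirb. A match of letters is a description and does not show a bound site. The windows of the 3 genes with the highest mean FPKM among these 6 are shown because they place the same letters next to 3 members of different function. Capitals mark the longer motif, which reads ACTTCCTC on the strand of all 3 genes, 2 bases before the start of Ctss (cathepsin S, chr3:95526536-95526835, plus strand), 195 bases before the start of C1qc (complement, chr4:136892865-136893164, minus strand) and 6 bases after the first base of Cd53 (a tetraspanin, chr3:106790100-106790399, minus strand).
Ctss: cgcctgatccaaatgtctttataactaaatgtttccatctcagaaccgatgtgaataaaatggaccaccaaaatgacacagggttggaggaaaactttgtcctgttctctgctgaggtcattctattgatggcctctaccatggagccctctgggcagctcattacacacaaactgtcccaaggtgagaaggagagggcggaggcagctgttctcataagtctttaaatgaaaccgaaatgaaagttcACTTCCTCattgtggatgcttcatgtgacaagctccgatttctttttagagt
C1qc: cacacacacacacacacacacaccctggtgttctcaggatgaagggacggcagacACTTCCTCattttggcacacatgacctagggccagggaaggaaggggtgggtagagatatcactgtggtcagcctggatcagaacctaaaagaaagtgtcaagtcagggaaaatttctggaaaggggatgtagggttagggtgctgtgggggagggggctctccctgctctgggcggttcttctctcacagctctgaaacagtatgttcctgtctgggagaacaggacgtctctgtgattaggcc
Cd53: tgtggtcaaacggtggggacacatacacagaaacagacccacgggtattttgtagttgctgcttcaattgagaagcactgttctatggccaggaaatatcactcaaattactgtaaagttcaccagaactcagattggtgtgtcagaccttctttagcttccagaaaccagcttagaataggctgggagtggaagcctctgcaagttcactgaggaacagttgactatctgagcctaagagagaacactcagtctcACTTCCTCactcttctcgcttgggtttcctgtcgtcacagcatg

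The surface markers by which macrophages are usually sorted rose as well. Adgre1 (ENSMUSG00000004730, chromosome 17, 57358691 to 57483527) encodes F4/80, the classical marker of mouse macrophages. It had 1621 counts in double-null and 1884 in Trp53-/- cells, against 118 in Zfp871-/- and 89 in WT cells, a log2 change of 3.83 (SE 0.226, edgeR adjusted p = 0.0102). Ptprc encodes CD45, the phosphatase found on all white blood cells. It had 610 counts in double-null and 751 in Trp53-/- cells, against 41 in Zfp871-/- and 36 in WT cells. Itgam and Itgb2 encode the chains of complement receptor 3, and Mrc1 the mannose receptor. Itgam had 231 and 294 counts in double-null and Trp53-/- cells against 12 and 22 in Zfp871-/- and WT cells. Itgb2 had 655 and 651 counts in double-null and Trp53-/- cells against 57 and 37 in Zfp871-/- and WT cells. Mrc1 had 575 counts in double-null and 551 in Trp53-/- cells, against 58 in Zfp871-/- and 28 in WT cells. In each of these genes both Trp53-null libraries lay above both others, as they did in 32.7% of all genes tested.

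The smallest called change belonged to Cd14, the co-receptor for bacterial lipopolysaccharide. It had 472 counts in double-null and 559 in Trp53-/- cells, against 93 in Zfp871-/- and 76 in WT cells, a log2 change of 2.35 (SE 0.238, edgeR adjusted p = 0.0218). Cd68, a glycoprotein of endosomes and lysosomes, followed, with 862 and 736 counts in double-null and Trp53-/- cells against 109 and 90 in Zfp871-/- and WT cells (log2 change 2.75, SE 0.161). By FPKM, Cd14 held rank 13 among the 39 genes in double-null and Trp53-/- cells, rank 6 in Zfp871-/- cells and rank 5 in WT cells. The largest fitted change was that of Cd52, a short glycopeptide of leukocyte membranes, with 148 and 207 counts in double-null and Trp53-/- cells against 2 and 3 in Zfp871-/- and WT cells. Its log2 change was 5.84 (SE 0.407), and at these low counts the interval of its log2 ratio ran from 4.03 to 8.97 for double-null over Zfp871-/- cells. Cd53, a leukocyte tetraspanin, had 241 and 281 counts in double-null and Trp53-/- cells against 38 and 22 in Zfp871-/- and WT cells.

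The 4 receptors for immunoglobulin G and both adaptors rose, against 5.01% of all genes tested. All but Fcer1g passed the filter through the Trp53-null libraries alone and so had to be higher there. Fcgr1, Fcgr3 and Fcgr4 are activating receptors, and Fcgr2b is the inhibitory one. Fcgr3 had 394 counts in double-null and 365 in Trp53-/- cells, against 12 in Zfp871-/- and 15 in WT cells. Fcgr2b had 166 and 154 counts in double-null and Trp53-/- cells, against 5 and 3 in Zfp871-/- and WT cells, and Fcgr4 had 43 in double-null and 62 in Trp53-/- cells, against 3 in Zfp871-/- and 4 in WT cells. The log2 changes were 4.55 for the activating Fcgr3 (SE 0.271) and 5.03 for the inhibitory Fcgr2b (SE 0.415), both of which the filter forced to be higher. Fcgr2b, Fcgr3 and Fcgr4 are related neighbours on chromosome 1 (170958617 to 171064935), and how reads that fit more than 1 of them were counted is not given in the sources used here. Fcer1g encodes the common gamma chain that carries the signal of the activating receptors. It had 599 counts in double-null and 688 in Trp53-/- cells, against 26 in Zfp871-/- and 27 in WT cells (log2 change 4.34, SE 0.206, edgeR adjusted p = 0.00861). Tyrobp, which encodes the adaptor DAP12, had 363 and 329 counts in double-null and Trp53-/- cells against 14 and 15 in Zfp871-/- and WT cells (log2 change 4.31, SE 0.265). Fcer1g and Tyrobp had log2 ratios of 4.13 and 4.23 for double-null over Zfp871-/- cells and of 4.37 and 4.09 for Trp53-/- over WT cells. For double-null over Trp53-/- cells they had -0.29 (-0.45 to -0.13) and 0.05 (-0.17 to 0.27).

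Of 7 genes for paired and lectin receptors 6 rose, against 5.01% of all genes, but 4 of the 6 (Pirb, Cd300lb, Cd300lf and Clec4a2) passed the filter through the Trp53-null libraries alone. Lilr4b, of the leukocyte immunoglobulin-like receptors, had 928 and 807 counts in double-null and Trp53-/- cells against 24 and 27 in Zfp871-/- and WT cells (log2 change 4.82, SE 0.195, edgeR adjusted p = 0.00781). Pirb, an inhibitory receptor for class I molecules, had 343 and 326 counts in double-null and Trp53-/- cells against 17 in Zfp871-/- and 17 in WT cells. Trem2, a lipid sensor that signals through DAP12, had 334 in double-null and 382 in Trp53-/- cells, against 19 in Zfp871-/- and 25 in WT cells. For double-null over Trp53-/- cells the log2 ratios were 0.11 (-0.02 to 0.25) for Lilr4b, -0.02 (-0.24 to 0.21) for Pirb and -0.28 (-0.50 to -0.07) for Trem2. For Zfp871-/- over WT cells they were -0.16, 0.00 and -0.36, with wider intervals that held 0. Cd300lb, an activating receptor, had 165 and 159 counts in double-null and Trp53-/- cells, against 5 in Zfp871-/- and 5 in WT cells. Clec4a2, an inhibitory lectin, had 258 and 267 counts in double-null and Trp53-/- cells, against 9 and 7 in Zfp871-/- and WT cells. Cd300lf, the inhibitory relative of Cd300lb, had 66 and 69 counts in double-null and Trp53-/- cells, against 3 in Zfp871-/- cells and 0 in WT cells. It was 19.9-fold higher in Trp53-/- than in WT cells when WT is set to 3 counts, and the lower limit of its log2 interval was 3.98. Clec7a encodes dectin-1, the receptor for fungal beta-glucan. It had 36 counts in double-null and 28 in Trp53-/- cells, against 9 in Zfp871-/- and 1 in WT cells, a log2 change of 2.52 (SE 0.726, edgeR adjusted p = 0.107). Lilr4b, Pirb, Clec4a2, Cd300lb and Cd300lf have close relatives in the genome, between which the counting may have split reads.

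The complement and MS4A genes rose as groups. C1qa, C1qb and C1qc encode the chains of C1q, which tissue macrophages secrete, and lie side by side on chromosome 4 (136880129 to 136898803). C1qa had 1279 counts in double-null and 1491 in Trp53-/- cells, against 78 in Zfp871-/- and 63 in WT cells. C1qb had 1127 and 1385 counts in double-null and Trp53-/- cells against 76 and 58 in Zfp871-/- and WT cells, and C1qc had 864 in double-null and 983 in Trp53-/- cells, against 38 in Zfp871-/- and 30 in WT cells. The 3 chains had log2 changes of 4.04, 3.97 and 4.50 (SE 0.215, 0.248 and 0.231). Ms4a6d and Ms4a7 encode membrane proteins with several spans that macrophages express. Ms4a6d had 621 and 708 counts in double-null and Trp53-/- cells against 25 and 32 in Zfp871-/- and WT cells, and Ms4a7 had 523 in double-null and 565 in Trp53-/- cells, against 29 in Zfp871-/- and 13 in WT cells.

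The digestive and oxidative machinery followed. Lyz2 (ENSMUSG00000069516, chromosome 10, 117277331 to 117282321) had 9700 counts in double-null and 9136 in Trp53-/- cells, against 695 in Zfp871-/- and 672 in WT cells. It had the smallest SE of the set, with a log2 change of 3.53 (SE 0.117, edgeR adjusted p = 0.00697). Mpeg1, which encodes a pore-forming protein that acts on engulfed bacteria, had 2405 and 2442 counts in double-null and Trp53-/- cells against 169 and 133 in Zfp871-/- and WT cells. Ctss, the protease that trims antigens and matrix, had 1742 in double-null and 1888 in Trp53-/- cells, against 83 in Zfp871-/- and 54 in WT cells. Laptm5, a lysosomal membrane protein of blood cells, had 841 and 966 counts in double-null and Trp53-/- cells against 72 and 44 in Zfp871-/- and WT cells. Cybb and Ncf1 encode subunits of the phagocyte oxidase, the membrane-bound catalytic chain and a cytosolic organizer. Cybb had 907 and 1246 counts in double-null and Trp53-/- cells against 68 and 65 in Zfp871-/- and WT cells, and Ncf1 had 453 in double-null and 471 in Trp53-/- cells, against 20 in Zfp871-/- and 29 in WT cells. Ncf1 overlaps Gtf2ird2 on the opposite strand, a gene with 221, 270, 209 and 203 counts in double-null, Trp53-/-, Zfp871-/- and WT cells.

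Of the genes for signalling and the cytoskeleton, Coro1a, which binds actin in blood cells, had 552 and 681 counts in double-null and Trp53-/- cells against 43 and 47 in Zfp871-/- and WT cells. It overlaps Bola2 on the opposite strand. Themis2, a signalling adaptor, had 111 and 110 counts in double-null and Trp53-/- cells, against 3 in Zfp871-/- cells and 1 in WT cells. Aif1, which encodes the microglial marker IBA1, had 65 and 136 counts in double-null and Trp53-/- cells against 2 and 5 in Zfp871-/- and WT cells. The log2 changes of Coro1a, Themis2 and Aif1 were 3.51, 5.46 and 4.57.

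Further genes of macrophages and other myeloid cells, in 10 lists with 98 genes in the table, rose in part. Of these 98 genes 83 passed the filter, 19 of them through the Trp53-null libraries alone. The test called 47, all of them higher without Trp53, while 5.01% of all genes tested rose and 4.31% fell. These lists too were chosen with earlier results of these data known. Among 8 genes of inhibitory signalling all 8 rose, of which 3 passed the filter through the Trp53-null libraries alone. Sirpa, the receptor for the signal that protects cells from being engulfed, had 2499 and 2723 counts in double-null and Trp53-/- cells against 968 and 762 in Zfp871-/- and WT cells, and Inpp5d, the phosphatase SHIP1, had 429 in double-null and 481 in Trp53-/- cells, against 40 in Zfp871-/- and 27 in WT cells. Among 12 genes of the blood cell cytoskeleton 11 rose, of which 1 passed the filter through the Trp53-null libraries alone. Lcp1, which bundles actin, had 2488 and 2885 counts in double-null and Trp53-/- cells against 187 and 155 in Zfp871-/- and WT cells. Arhgdib was the gene not called, with 3269 and 3631 counts in double-null and Trp53-/- cells and 2186 and 1846 in Zfp871-/- and WT cells. Among 12 genes that act behind the activating receptors 8 rose. In this list 6 genes, Btk among them, passed the filter through the Trp53-null libraries alone and so had to be higher there. Syk, the kinase that binds the tyrosine motifs of these receptors, was among those called. It had 571 and 635 counts in double-null and Trp53-/- cells against 249 and 303 in Zfp871-/- and WT cells. Btk, a kinase further along the pathway, had 101 in double-null and 133 in Trp53-/- cells, against 3 in Zfp871-/- and 3 in WT cells.

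Other lists held called and uncalled genes side by side, to be read beside the 5.01% of all genes tested that rose. Of 12 further oxidase and lysosome genes 5 rose. Ncf4 and Slc11a1, an oxidase subunit and a metal transporter of the phagosome, were among them, with log2 changes of 3.54 and 3.59. Lamp1 and Ctsb, general lysosomal genes, had changes of 0.17 and 0.34 and were not called. Of 10 myeloid transcription factors 3 rose, namely Irf8, Ikzf1 and Irf5, of which Irf5 was chosen after its values were seen. Irf8 and Ikzf1 passed the filter through the Trp53-null libraries alone and so had to be higher there. Irf8 had 107 and 133 counts in double-null and Trp53-/- cells against 8 and 7 in Zfp871-/- and WT cells. Runx1 had 2353, 2529, 1888 and 892 counts in double-null, Trp53-/-, Zfp871-/- and WT cells, so that WT stood apart, and it was not called. Of 12 Toll-like receptor genes and partners 3 rose, and of these Tlr7 and Tlr8 passed the filter through the Trp53-null libraries alone. Tlr7 had 157 and 259 counts in double-null and Trp53-/- cells against 11 and 9 in Zfp871-/- and WT cells. Tlr4 had 255 and 255 counts in double-null and Trp53-/- cells and 260 and 487 in Zfp871-/- and WT cells and was not called. Of 10 complement and chemotactic receptor genes 3 rose, and 2 genes of this list passed the filter through the Trp53-null libraries alone. C3ar1 was among those called, with 715 and 935 counts in double-null and Trp53-/- cells against 62 and 42 in Zfp871-/- and WT cells.

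The growth factor and its other receptors were read from their own lists. Csf1, the growth factor for macrophages that connective tissue cells secrete, was abundant in all 4 cultures, at 148, 122, 142 and 98.9 FPKM in double-null, Trp53-/-, Zfp871-/- and WT cells. Its log2 change was 0.18 (SE 0.127, edgeR adjusted p = 0.4). Il34 had 24 and 28 counts in double-null and Trp53-/- cells and 45 and 36 in Zfp871-/- and WT cells and was not called. Csf2rb and Csf2rb2, signalling chains for related cytokines, rose, and Csf2rb2 passed the filter through the Trp53-null libraries alone. Csf2rb had 211 and 296 counts in double-null and Trp53-/- cells against 9 and 28 in Zfp871-/- and WT cells, and Csf2rb2 had 185 in double-null and 193 in Trp53-/- cells, against 11 in Zfp871-/- and 12 in WT cells. Csf2ra was not called.

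Genes of resident tissue macrophages were divided. Of the 14 listed, 8 passed the filter and 4 rose, against 5.01% of all genes tested. These were Siglec1, Marco, Msr1 and Stab1, the last 3 named after their values were seen. Siglec1 passed the filter through the Trp53-null libraries alone and so had to be higher there. Siglec1, a lectin of resident macrophages, had 301 and 307 counts in double-null and Trp53-/- cells against 19 and 9 in Zfp871-/- and WT cells. Msr1, a scavenger receptor, had 1794 in double-null and 1708 in Trp53-/- cells, against 111 in Zfp871-/- and 70 in WT cells. Cd163 had 0 counts in each of the 4 libraries, and Timd4, Vsig4 and Lyve1, like Cd163 chosen after their values were seen, had at most 6 in any library. Axl and Gas6, a receptor for dying cells and its ligand, were expressed in all cultures and not called. Cbr2 stood apart in WT, with 30 and 21 counts in double-null and Trp53-/- cells and 60 and 606 in Zfp871-/- and WT cells.

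Most markers of other blood cells had few or no counts. In 6 lists of neutrophils, mast cells, T and NK cells, B cells, red cells and megakaryocytes, 53 genes were in the table. Of these 19 had 0 counts in every library and 45 had fewer than 10 counts in every library. Pf4, a chemokine of platelets that macrophages also express, was the only gene of the 5 tested that rose, against 5.01% of all genes. It passed the filter through the Trp53-null libraries alone. Its counts were 85 and 100 in double-null and Trp53-/- cells against 10 and 5 in Zfp871-/- and WT cells. Mmp8 (neutrophils) had 31, 44, 3 and 0 counts in double-null, Trp53-/-, Zfp871-/- and WT cells, and Cr2 (B cells) had 28, 44, 10 and 1. Both also passed the filter through the Trp53-null libraries alone, were at least 2-fold higher in both Trp53 pairs and were not called. Itga2b and Ppbp, of the megakaryocyte list, were lower in both Trp53 pairs. The summed level of the T and NK cell list was 2.24, 1.1, 0.797 and 0.531 CPM in double-null, Trp53-/-, Zfp871-/- and WT cells, and that of the neutrophil list was 1.6, 2.25, 0.797 and 0.531 CPM. The megakaryocyte list was higher, at 7.33, 7.43, 5.42 and 24.9 CPM in the same order of genotypes. In WT cells Ppbp, a platelet chemokine, gave 383 of the 469 counts of this list. The list included Itga2b, an integrin chain of platelets, with 60, 48, 59 and 80 counts. Of 11 dendritic cell and class II genes 2 passed the filter and were not called, and the sum of the 11 was 4.18, 5.69, 6.22 and 4.83 CPM. Of 8 osteoclast genes 3 passed the filter and were not called, among them Mmp9. This gene, a matrix protease of osteoclasts and other cells, had 1940 and 1893 counts in double-null and Trp53-/- cells against 291 and 39 in Zfp871-/- and WT cells. Ppbp, of the megakaryocyte list, had 25 and 14 counts in double-null and Trp53-/- cells and 33 and 383 in Zfp871-/- and WT cells and was not called. Of 8 endothelial genes 3 passed the filter and were not called, and the sum of the 8 was 20.7, 18.6, 26.2 and 13.8 CPM in double-null, Trp53-/-, Zfp871-/- and WT cells.

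Of the 16 fibroblast markers, all tested, 0 rose and 3 fell, namely Lum, Col3a1 and Fap, of which Col3a1 and Fap were named after their values were seen. Of all genes tested, 5.01% rose and 4.31% fell. Lum, a matrix proteoglycan, had 217 and 392 counts in double-null and Trp53-/- cells against 597 and 2192 in Zfp871-/- and WT cells. Col1a1, the chain of the main collagen of connective tissue, had a log2 change of -0.69 (SE 0.186, edgeR adjusted p = 0.096). The list did not lie on 1 side. In double-null over Zfp871-/- cells 0 of its genes were at least 2-fold higher, against 5.51% of all genes. There 2 were at least 2-fold lower, against 6.33%. In Trp53-/- over WT cells 1 was at least 2-fold lower, against 8.88% of all genes, and 5 were at least 2-fold higher, against 8.9%. The 5 were Thy1, a surface glycoprotein, and Dcn, Twist2, Pdgfra and Postn, the last 4 named after their values were seen. Thy1 had log2 ratios of 0.14 for double-null over Zfp871-/- cells and 1.71 for Trp53-/- over WT cells, and none of the 5 was called. What part differences in the makeup of the cultures have in any of these changes was not tested.

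**Figure D3:**
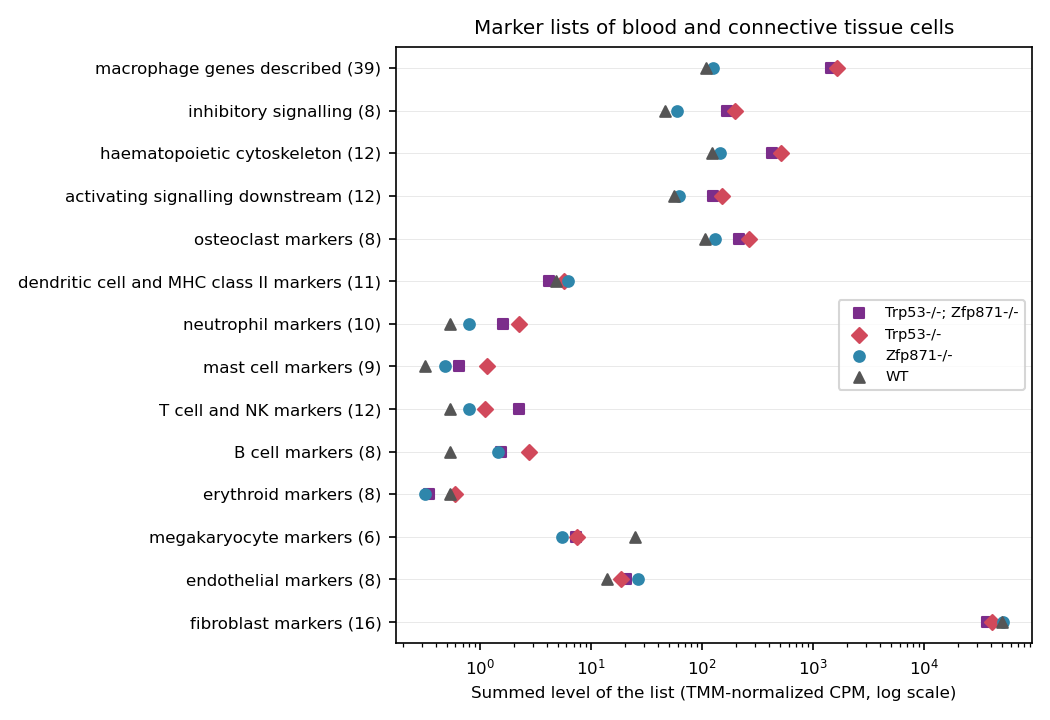
Summed level of marker lists in each library, in TMM-normalized CPM on a log axis, with the number of genes in the table after each list name and 1 symbol per genotype. The macrophage genes sum to 1440 and 1634 CPM in double-null and Trp53-/- cells against 125 and 108 CPM in Zfp871-/- and WT cells, and the 6 lists of other blood cells, from neutrophils to megakaryocytes, reach at most 24.9 CPM in any library.

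The set differed little after loss of Zfp871, on average downward in cells without Trp53 and upward in cells with it. No member passed the edgeR quasi-likelihood test for Zfp871 (smallest adjusted p 0.874), and DESeq2 and limma-voom also called 0. At an unadjusted p under 0.05 there were 2 members, Cx3cr1 and Aif1, against 3.83% of all genes, and 0% of all genes were called in either direction after adjustment. The 38 members that the same design called for Trp53 came from a list chosen with earlier results known and had larger fitted changes. They do not show that the test could find small changes. Where Trp53 was lost, the median log2 ratio of double-null over Trp53-/- cells was -0.27, and 33 of 39 genes were below 0, against 49.1% of all genes. The counting interval lay below 0 for 24 members, against 17.5% of all genes, and above 0 for 0 members, against 19%. Where Trp53 was present, the median ratio of Zfp871-/- over WT cells was 0.27 (0.26 with the gene at 0 counts in WT set to its bound), and 26 of 39 were above 0, against 49.5% of all genes. There the interval lay above 0 for 7 members, against 27.7% of all genes, and below 0 for 0, against 27.3%. The summed counts gave log2 ratios of -0.18 (-0.20 to -0.16) for double-null over Trp53-/- cells and 0.22 (0.13 to 0.30) for Zfp871-/- over WT cells. Without repeated cultures the size of these differences cannot be set against the spread between cultures.

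Cx3cr1, the receptor for the chemokine fractalkine, was the member with the largest fitted change after Zfp871 loss. It had 118 counts in double-null cells against 408 in Trp53-/- cells, with a log2 ratio of -1.86 (interval -2.19 to -1.58), and 10 counts in Zfp871-/- cells against 21 in WT cells, a ratio of -0.95 (-2.32 to 0.08). The fitted change was -1.61 (SE 0.33, edgeR adjusted p = 0.874). Cx3cr1 also had the lowest ratio of all members for double-null over WT cells, at 2.10 (1.51 to 2.93). Its annotated span overlaps Wdr48, Gorasp1 and Csrnp1, each with more counts than Cx3cr1 itself in every library, so reads could be mixed.

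Aif1 was the other member at least 2-fold lower in double-null than in Trp53-/- cells, at a ratio of -1.13 (-1.60 to -0.72). Its 2 counts in Zfp871-/- and 5 in WT cells are too few to compare. The share of all genes at least 2-fold lower in double-null than in Trp53-/- cells was 1.01%, and at least 2-fold higher 0.819%, with 0 members. Fcgr1, the high-affinity receptor, lay just short of 2-fold, with 204 counts in double-null and 380 in Trp53-/- cells, a ratio of -0.98 (-1.24 to -0.74). Its counts were 15 in Zfp871-/- and 8 in WT cells. Cybb was next among genes with many counts, at -0.55 (-0.67 to -0.42). Lyz2, with the most counts, had a ratio of -0.00 (-0.04 to 0.04), and Mrc1, Fcgr2b, Fcgr3, Pirb and Cd300lb lay between -0.03 and 0.02.

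In the pair with Trp53, 4 members had a ratio of at least 2-fold higher in Zfp871-/- than in WT cells, against 3.52% of all genes, and 0 of at least 2-fold lower, against 3.98%. They were Clec7a, Ms4a7, Mrc1 and Cd300lf. The ratio of Cd300lf (3 counts against 0) rests on the prior count, and its counts allow no fold, which leaves 3 members. Mrc1 had 58 counts in Zfp871-/- cells against 28 in WT cells, a log2 ratio of 1.01 (0.38 to 1.76), and Ms4a7 had 29 against 13, a ratio of 1.06 (0.17 to 2.23). Clec7a (9 counts against 1) had a ratio of 1.94 (0.32 to 8.63). Spi1 had 25 counts in Zfp871-/- cells against 13 in WT cells, and its interval of -0.08 to 2.04 held 0.

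**Figure D4:**
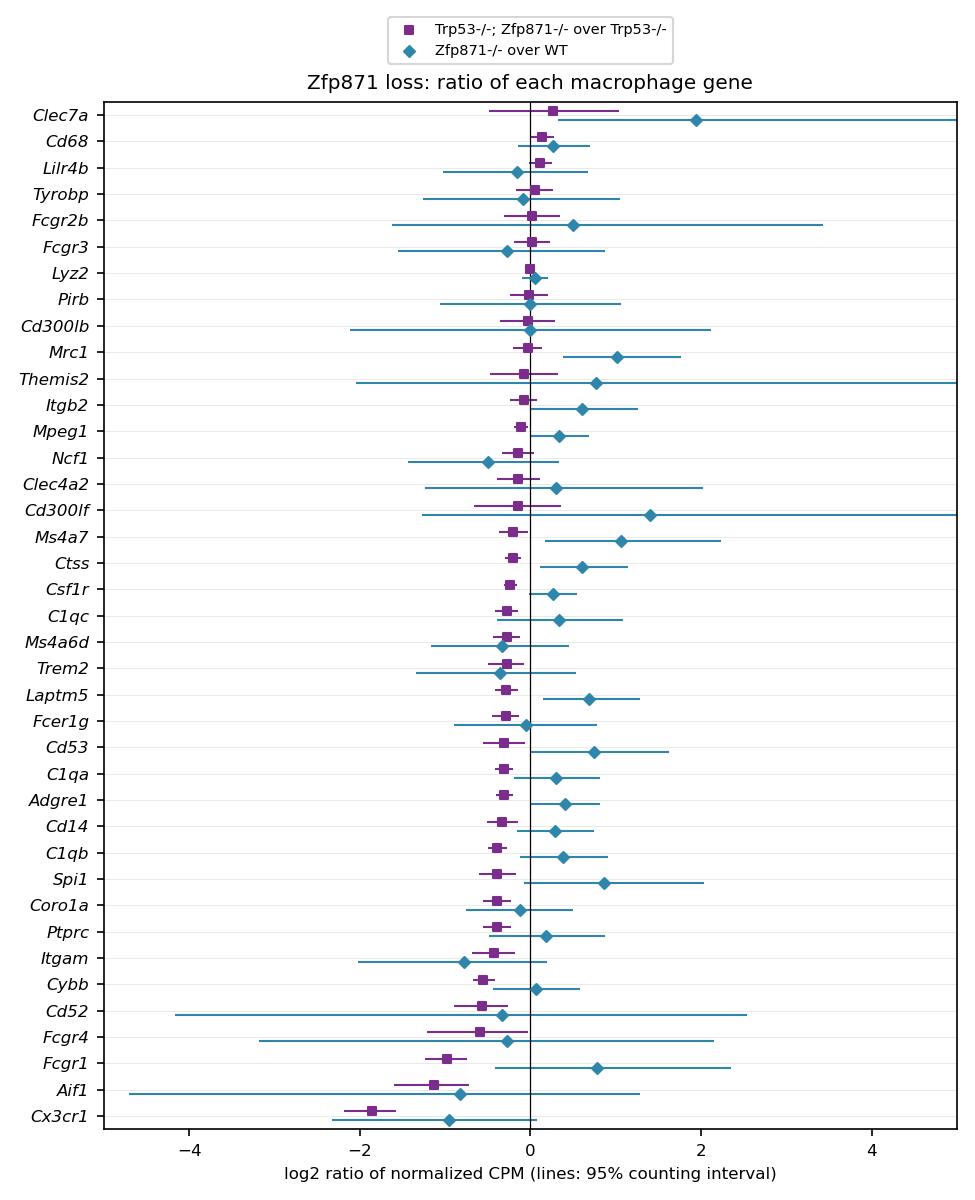
Log2 ratio of normalized CPM after Zfp871 loss for each macrophage gene, with squares for double-null over Trp53-/- cells and diamonds for Zfp871-/- over WT cells. Lines are 95% counting intervals, wide for the low counts of Zfp871-/- and WT cells. Most squares lie just left of 0, with Cx3cr1 at -1.86 and Aif1 at -1.13, while the diamonds scatter around 0 from -0.95 to 1.94.

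With both genes lost, the set was high against WT. All 39 members were at least 2-fold higher in double-null than in WT cells, against 8.79% of all genes, and 0 were 2-fold lower, against 9.23%. The median log2 ratio was 3.90 (14.9-fold) and single genes ranged from 2.10 to 5.03. The summed counts gave 3.74 (3.68 to 3.81). This pair shares its libraries with the pairs above and adds no separate evidence. Cd300lf was 17.9-fold higher in double-null than in WT cells when WT is set to 3 counts, and the lower limit of its log2 interval was 3.82.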

How the data were processed

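RNA sequencing of 4 MEF cultures, 1 library per genotype, was analysed from 2 kinds of deposited values. The deposited raw counts per Ensembl gene come from reads against mm10, for which the submitters' processing notes name fastp, STAR and featureCounts. Not given in the sources used here are their versions, the strand setting, the annotation release and the handling of reads that fit several genes. The authors' normalized values per library carry no unit in their header and were read as the authors' FPKM, because for 17641 genes with a value above 0 in every library they equal the count divided by a length per gene and a factor per library within 0.1%.

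Symbols, coordinates and gene types were taken from GENCODE M21 (GRCm38/mm10), in which 54495 of 54532 IDs were found. The filter asked for 1 CPM or more in 2 or more libraries, which kept 13306 genes. Counts were scaled in edgeR 4.0.16 under R 4.3.3; the TMM factors were 1.041, 1.041, 0.9437 and 0.9783 for double-null, Trp53-/-, Zfp871-/- and WT cells. Trp53 loss and Zfp871 loss were tested by quasi-likelihood in edgeR, with both genotypes as additive terms, and adjusted by Benjamini-Hochberg at 0.05 over all genes kept. In the text, rose and fell refer only to genes past this test. With 1 library per genotype, the 1 residual degree of freedom is the departure from additive effects of both genotypes. The p-values rest on that departure, moderated over all genes, and not on a spread between cultures of a genotype. Each SE was the absolute log2 change divided by the square root of the quasi-likelihood F statistic, and rests on the same departure. The common dispersion was 0.0302. Tested on simulated data for Trp53 loss over 13306 genes, the test found 62% of the 2-fold changes and 97% of the 4-fold changes, with 10 false calls; simulated libraries carry no culture differences.

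5 pairs of libraries were compared by the log2 ratio of CPM with a prior count of 2, and a ratio of at least 2-fold was counted. Intervals are exact Clopper-Pearson 95% intervals. They cover counting error only, because each genotype had 1 library. Without molecular identifiers several reads can stem from 1 molecule, so the intervals may be too narrow even for counting error. A count of 0 was set to 3 counts for a bound. The alternatives were DESeq2 1.42.0, limma-voom (limma 3.58.1), other scalings, filters, prior counts and designs, the FPKM values with a pseudocount of 0.1, and leaving out each library. Alternatives restricted to members with at least 1 CPM, or at least 50 counts, in every library were chosen after seeing the data.

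The 39 genes, the 20 other gene lists and the motifs were chosen with earlier results of these data known. Every member was named. Of each other list the counts were given, and the 2 genes of highest mean CPM and the 2 of largest absolute log2 ratio for Trp53-/- over WT cells could be named, any other being marked as named after its values were seen. Of the listed symbols, 1 (Ahsp, red cells) had no ID. 16 of the 39 members overlap another annotated gene, and their reads are uncertain where that partner is expressed.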

Additional observations from a re-analysis of the deposited data

Results flagged for a closer look

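For 4 members, the ratio after Zfp871 loss went one way with Trp53 and the other way without it. Each counting interval lay wholly on the side of its ratio, and the difference between both backgrounds was not tested. The log2 ratio of Ms4a7 was -0.20 for double-null over Trp53-/- cells and 1.06 for Zfp871-/- over WT cells. Ctss had -0.20 and 0.61, Laptm5 had -0.29 and 0.69, and Mpeg1 had -0.11 and 0.34 in the same pairs. All of them had 169 counts or fewer in Zfp871-/- and WT cells.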

How the results depend on the processing

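The number of members called for Trp53 loss was 38 under every other scaling, without the filter on low counts, with Trp53 as the only term, and with DESeq2 and limma-voom. It was 21, of 21 members tested, when at least 1 CPM was asked of all 4 libraries, and it ranged from 0 to 39 when each library was left out of the design with Trp53 alone. The 2 values of 0 came without Trp53-/- or without double-null cells, where the spread rests on Zfp871-/- against WT cells alone and the lone Trp53-null library is assumed to vary like them. The direction of the single members held in all these alternatives. Under the filter on all 4 libraries, 21 members of 21 were at least 2-fold higher for Trp53 loss with Zfp871, for Trp53 loss without it and for double-null over WT cells, while the number at least 2-fold higher in Zfp871-/- over WT cells was 1, and the number at least 2-fold lower in double-null over Trp53-/- cells was 0; in each case fewer members were tested. The number at least 2-fold higher in Zfp871-/- over WT cells was also 1 with the deposited FPKM values, and the number at least 2-fold lower there was 2 with a prior count of 0.5, since low counts are then drawn less toward each other. Scaling by total counts moved the median of all genes by 0.14 for double-null over Zfp871-/- cells and by at most 0.09 in the other pairs. The calls for Zfp871 loss among members stayed at 0 in every setting tried. No paired analysis was possible because the labels give no replicate numbers and each genotype has 1 library. Depth limits the comparison of Zfp871-/- with WT cells, since 10 of the 39 members had at least 50 counts in every library.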
